A study of Mus musculus with 4 samples.

Results

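Transcript levels of genes for lysosome acidification, autophagy and vacuolar protein sorting were described in sorted CCR6+ group 3 innate lymphoid cells (ILC3). The genes were all those whose single symbol on the array platform begins with Atp6v, or with Atg, Vps or Lamp followed by a digit. There were 78 such genes among 19938 named genes, namely 21 Atp6v, 18 Atg, 35 Vps and 4 Lamp genes. Naive C57BL/6 mice gave the mesenteric lymph node cells, which were sorted as CD127+ CD90.2+ CCR6+ ST2- into Trizol for total RNA. The labels name no other gate marker, age, sex, genotype or treatment. The 4 arrays form 1 group and are called arrays 1 to 4 here, so no contrast between conditions was possible. Whether the samples were separate animals, pools or sorts is not given by the labels, so the SD over the 4 arrays may be partly technical.

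The vacuolar ATPase (V-ATPase) is a rotary proton pump that acidifies lysosomes and endosomes. Its V1 sector hydrolyses ATP in the cytosol and its V0 sector carries protons through the membrane. Autophagy encloses cytoplasm in a double membrane built by the Atg proteins and delivers it to the lysosome. The Vps proteins, named after yeast mutants in vacuolar protein sorting, form the coats and tethers that move cargo between the Golgi, endosomes and lysosomes. In cells that carry MHC class II, peptides are loaded onto it in these acidic compartments, and autophagy is known to sustain long-lived lymphocytes.

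A gene was called above background when the mean of its 4 log2 levels ranked high enough among 1237 genes of odorant, pheromone, trace amine and bitter taste receptors, whose median was 4.25. This gives an exact one-sided detection p, and genes with a Benjamini-Hochberg adjusted value under 0.05, over the 19938 genes, were called. The lowest mean that was called was 6.37. Probe sets bind with different strength, so each gene is read against background, and an order of genes by level is no order of RNA amounts. Array medians over all probe sets lay between 5.99 and 6.03. The gate genes Il7r at 12.56 ± 0.057 (log2 level, mean ± SD over n = 4 arrays, here and below), Thy1 at 11.36 ± 0.15 and Ccr6 at 10.49 ± 0.086 were above background, as were Id2, Il23r and Kit of ILC3. B cell markers were present too, with list means of 9.07, 8.02, 9.34 and 7.88 over 9 genes on arrays 1 to 4, of which 9 were called. T cell markers were called in 6 of 8 cases, with list means between 7.27 and 7.69. For dendritic cells, 5 of 10 markers (50%) passed, beside 46.2% of all named genes, with list means between 6.03 and 6.37. This count is near the share of all genes, so it does not show whether dendritic cells were present. The part of B, T or dendritic cells in the levels of the lysosome and sorting genes was not tested. In such bulk RNA, fewer cells of a type and less RNA per cell cannot be told apart. Among 15 genes of other organs, 5 were called, the highest single value being 7.42 for the muscle gene Ckm. Calls below that level therefore carry less weight, and genes above 7.42 on every array are counted separately. Of the markers, 7 of 9 for B cells, 3 of 8 for T cells and 1 of 10 for dendritic cells lay above 7.42 on every array. Of the 1237 background genes, 4 also lay above 7.42 on every array.

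Most of the lysosome, autophagy and sorting genes were detected above background. Of the 78 genes, 63 (80.8%) were called, against 46.2% of all named genes, and 71 had an unadjusted detection p under 0.05. Above 7.42 on every array were 41 of the 78, against 24.1% of all named genes. The median of their mean levels was 7.71, beside 6.16 over all named genes. Sorting genes were called most often, 33 of 35, followed by 14 of 18 Atg genes, 14 of 21 V-ATPase genes and 2 of 4 Lamp genes. Of the 15 genes that were not called, 13 have a paralogue that was called, the others being Atg5 and Vps45.

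**Figure D1:**
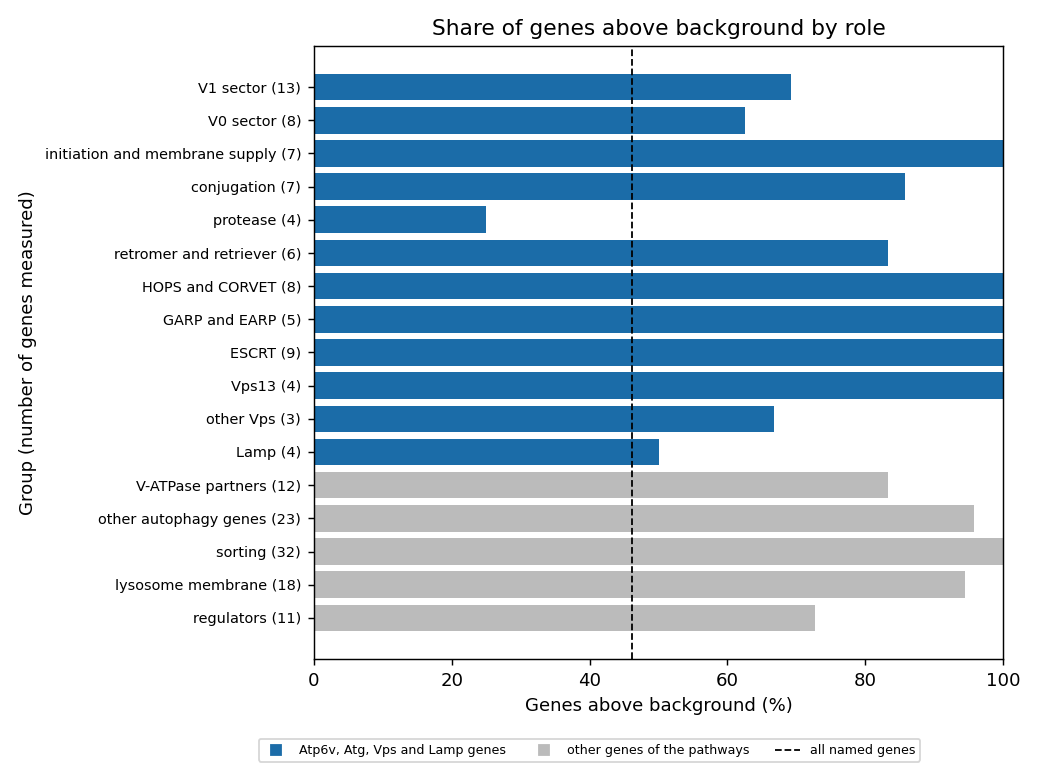
Bars give the percentage of genes above background in each role, with the number of genes measured in brackets, for the 78 genes (blue) and for lists of other genes of the same pathways (grey). The dashed line marks the 46.2% of all named genes, and the Atg4 proteases, with 1 of 4 called, are the role below it.

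Many lysosomal promoters carry a palindromic E-box known as the CLEAR element, which the transcription factor TFEB and its relatives bind. RefSeq promoter windows on GRCm38.p6, from 250 bases before to 50 bases after the start, matched 57 of the 78 genes. The letters CACGTG, which read the same on both strands, were found in 13 of the 57 (22.8%), against 8.09% of 27025 genes with a window. Windows of 12 of the 43 called genes held them (27.9%), against 11.96% of 7411 named genes above background, and 1 of 14 uncalled genes did (7.14%), against 7.30% of 8152 named genes that were not called. The longer palindrome TCACGTGA, which contains CACGTG, was found in 7 of the 57 (12.3%), against 1.12% of all genes. Windows of 7 of the 43 called genes held it (16.3%), against 2.39% of named genes above background. The longest form, TCACGTGA with a G before it and a C after it, was found for Vps16, Vps26a and Vps33a, or 5.26% against 0.37% of all genes. These matches are descriptions of letters and no evidence of binding, and the 21 genes with no matched window were not searched. Stretches that lie before the start are given below for genes of each family, 5′ to 3′ in the direction of the gene, with CACGTG in capitals, to show where these letters lie. The stretches of Lamp1, Atp6v0b, Vps33a and Vps16 end at the base before the start, that of Atg3 covers bases 110 to 21 before it, that of Atp6v1a bases 150 to 61, and that of Vps26a bases 190 to 101 before one of its starts.
Lamp1, chr8:13159081-13159160, plus strand: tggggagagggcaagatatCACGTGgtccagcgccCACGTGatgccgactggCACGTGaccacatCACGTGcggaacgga
Atp6v0b, chr4:117887330-117887399, minus strand: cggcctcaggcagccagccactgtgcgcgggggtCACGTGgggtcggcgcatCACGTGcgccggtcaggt
Atp6v1a, chr16:44139320-44139409, minus strand: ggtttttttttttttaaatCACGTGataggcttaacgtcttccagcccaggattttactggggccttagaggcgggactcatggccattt
Vps33a, chr5:123573016-123573075, minus strand: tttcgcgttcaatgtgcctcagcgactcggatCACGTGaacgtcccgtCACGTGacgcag
Vps16, chr2:130424260-130424319, plus strand: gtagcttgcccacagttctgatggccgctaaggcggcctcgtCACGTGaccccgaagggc
Vps26a, chr10:62486699-62486788, minus strand: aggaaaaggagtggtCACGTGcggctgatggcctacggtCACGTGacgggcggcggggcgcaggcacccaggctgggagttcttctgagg
Atg3, chr16:45158719-45158808, plus strand: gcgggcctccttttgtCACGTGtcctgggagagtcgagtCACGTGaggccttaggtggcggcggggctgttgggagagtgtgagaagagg
The Lamp1 stretch, the last 80 bases before the start, holds 4 matches, the most among these 7 stretches. Both matches of Vps33a are of the form TCACGTGA, and that of Vps16 is the longest form. Of the factors that bind such sites, Tfeb at 6.63 ± 0.12 and Tfe3 at 6.95 ± 0.30 were called but did not lie above 7.42, while Mitf at 5.67 ± 0.10 and Tfec at 4.79 ± 0.032 were not called. Tfeb and Tfe3 were singled out after their values were seen.

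**Figure D2:**
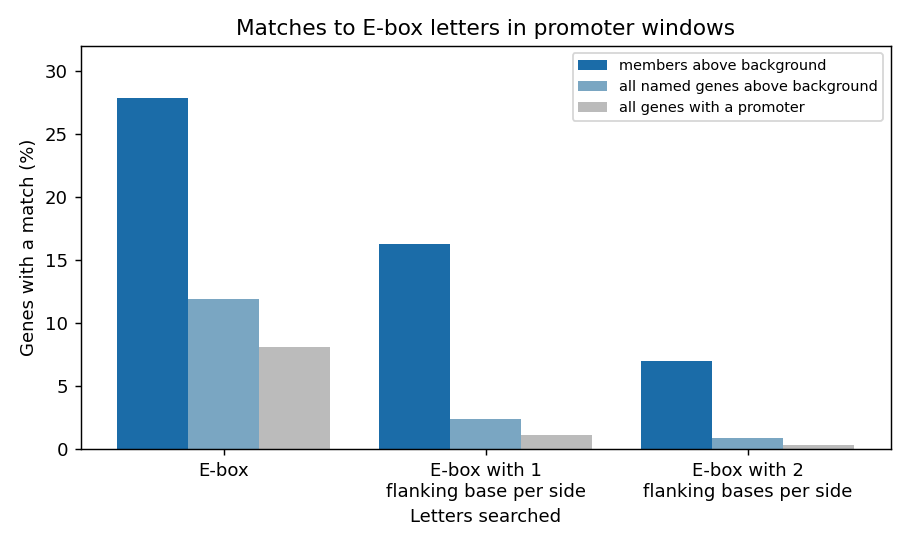
Bars give the percentage of genes whose promoter window holds CACGTG or its longer palindromes, for the 43 called genes of the set with a window, for all named genes above background and for all genes with a window. The set stands at 27.9%, 16.3% and 6.98% for the 3 forms, beside 11.96%, 2.39% and 0.89% of named genes above background.

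In the V1 sector, each of the 8 subunit positions was covered by at least 1 called gene. Of its 13 genes 9 were called (69.2%), against 46.2% of all named genes. These 9 also lay above 7.42 on every array, against 24.1% of all named genes. Atp6v1f, a subunit of the central rotor, was at 9.83, 10.05, 9.42 and 9.83 on arrays 1 to 4 and Atp6v1d, the rotor shaft, at 9.55, 9.25, 9.47 and 9.27. Both lay far above the called limit throughout (adjusted detection p 0.0108 and 0.0108). Array 3 was the lowest for Atp6v1f, and its other probe set was also lowest there, at 9.25. Atp6v1a, the catalytic subunit, was at 7.67 ± 0.10 and Atp6v1h, a regulatory subunit, at 8.08 ± 0.20.

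At 4 V1 positions the mouse has more than 1 gene, and the genes of each position differed in their call. For subunit B, Atp6v1b2 was at 7.95, 8.18, 8.54 and 8.40, with an adjusted detection p of 0.0143. Atp6v1b1, known from acid-secreting cells of the kidney and inner ear, was at 5.06, 5.10, 5.02 and 5.15 and not called (adjusted detection p 0.221). The ranges of the genes lay far apart on opposite sides of the called limit.

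The same held for subunits C and E. Atp6v1c1 was at 9.002, 8.40, 8.42 and 8.48, with array 1 standing above the other arrays. Atp6v1c2 was at 5.81, 5.88, 5.83 and 5.73 and not called (adjusted detection p 0.0896). Atp6v1e1 was called at 7.96, 8.16, 8.06 and 7.64, lowest on array 4. Its testis counterpart Atp6v1e2 was at 5.83, 5.89, 5.76 and 5.89 and not called (adjusted detection p 0.0849).

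Of the subunit G genes, 2 of 3 were called. Atp6v1g1, the widely expressed form, was at 9.33, 9.51, 9.26 and 9.11. Atp6v1g2, known from neurons, was at 8.89, 9.03, 8.89 and 9.01, an adjusted detection p of 0.0143. It varied little between arrays, with an SD of 0.072. Its RefSeq gene model overlaps that of Nfkbil1, which was at 7.44, 7.60, 7.49 and 7.72, and the part of the neighbour in its level was not tested. Atp6v1g3, known from the kidney, was at 5.16, 5.16, 5.16 and 5.11 and not called (adjusted detection p 0.203).

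In the V0 sector all 4 positions measured were covered by a called gene, with 5 of 8 genes called (62.5%), against 46.2% of all named genes. Only 2 of the 8, Atp6v0b and Atp6v0e, lay above 7.42 on every array, where 24.1% of all named genes did. The called genes of this set for subunits a and d, Atp6v0a2 and Atp6v0d1, each had at least 1 array below 7.42. The proteolipid gene Atp6v0c is not analysed here. Atp6v0e, a small membrane subunit, was at 10.52, 10.76, 10.69 and 10.65 (adjusted detection p 0.0108). Its paralogue Atp6v0e2 was also called, at 6.58, 6.60, 6.45 and 6.59, but below 7.42, where genes of other organs also lay. Atp6v0b, a proteolipid of the membrane ring, was at 9.02, 9.01, 9.03 and 8.23, with arrays 1 to 3 close together and array 4 low. Its SD of 0.40 was the largest among the 63 called genes.

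For subunit a, which anchors the pump and directs it to its membrane, Atp6v0a2 was called at 7.30, 7.68, 7.72 and 7.56. Its other probe set gave 7.65 on array 1, where the one used was lowest, so the order of arrays is not settled for this gene. Atp6v0a1 was at 6.33, 5.99, 6.91 and 5.45, with arrays on both sides of the called limit, and was not called (adjusted detection p 0.0632). Without array 4 it was called, at 6.41 with an adjusted detection p of 0.0496. Its order over arrays was 3, 1, 2 and 4 from high to low. The B cell and T cell list means had this order, as did Lamp1, Vps26a and Vps72. Of the B cell markers, Cd79a, Ms4a1, Fcer2a and Pou2af1 did not, and of the T cell markers only Cd3d did. The part of B or T cells in the level of Atp6v0a1 was not tested. Atp6v0a4, known from the kidney, was at 5.13, 5.22, 5.12 and 5.15 and not called (adjusted detection p 0.2). The remaining a subunit gene, Tcirg1, falls outside the symbol rule and was called, at 8.64, 8.59, 8.52 and 9.10.

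For subunit d, Atp6v0d1, the widespread form, was called at 7.13, 7.02, 7.17 and 7.51, highest on array 4. Atp6v0d2, known from osteoclasts and macrophages, was at 6.84, 6.25, 5.47 and 5.41 and not called (adjusted detection p 0.0753). It spanned 1.43 log2 units, and array 1 stood highest. Of 9 macrophage and monocyte markers 2 were called (22.2%), against 46.2% of all named genes. These were Lyz2 at 9.11, 7.76, 8.51 and 7.50 and Cd68 at 6.45, 7.51, 7.09 and 6.72. The list means lay between 5.79 and 6.22. The markers did not share an order over arrays. Lyz2, C1qb, C1qc and Cd14 were highest on array 1, as Atp6v0d2 was, while Cd68, C1qa and Csf1r were lowest there, Adgre1 was highest on array 3 and Mertk on array 4. Their part in the level of Atp6v0d2 was not tested.

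The Lamp genes, which encode heavily glycosylated proteins of the lysosome membrane, were called in 2 of 4 cases. This share of 50% is near the 46.2% of all named genes, so the count says little about the family. Lamp1 was at 10.65, 10.62, 10.72 and 10.61, within 0.11 log2 units on all arrays (adjusted detection p 0.0108). Lamp2, which also serves chaperone-mediated autophagy, was at 8.32, 8.44, 8.31 and 8.02 (adjusted detection p 0.0143). Lamp3, known from mature dendritic cells, was at 4.32, 4.21, 4.30 and 4.31, beside a background median of 4.25 (adjusted detection p 0.523). Of the dendritic cell markers, Fscn1 at 7.33 ± 0.71 and Ccl17 at 7.12 ± 0.49 were called, both with means below 7.42. Batf3 was called at 8.94 ± 0.19 and lay above 7.42 on every array. Ccl22 and Zbtb46 were called too, with means below 7.42, while Flt3, Itgax, Xcr1, Siglech and Clec9a were not. Lamp5, known from neurons and plasmacytoid dendritic cells, was at 5.31, 5.08, 5.09 and 5.01 and not called (adjusted detection p 0.21).

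**Figure D3:**
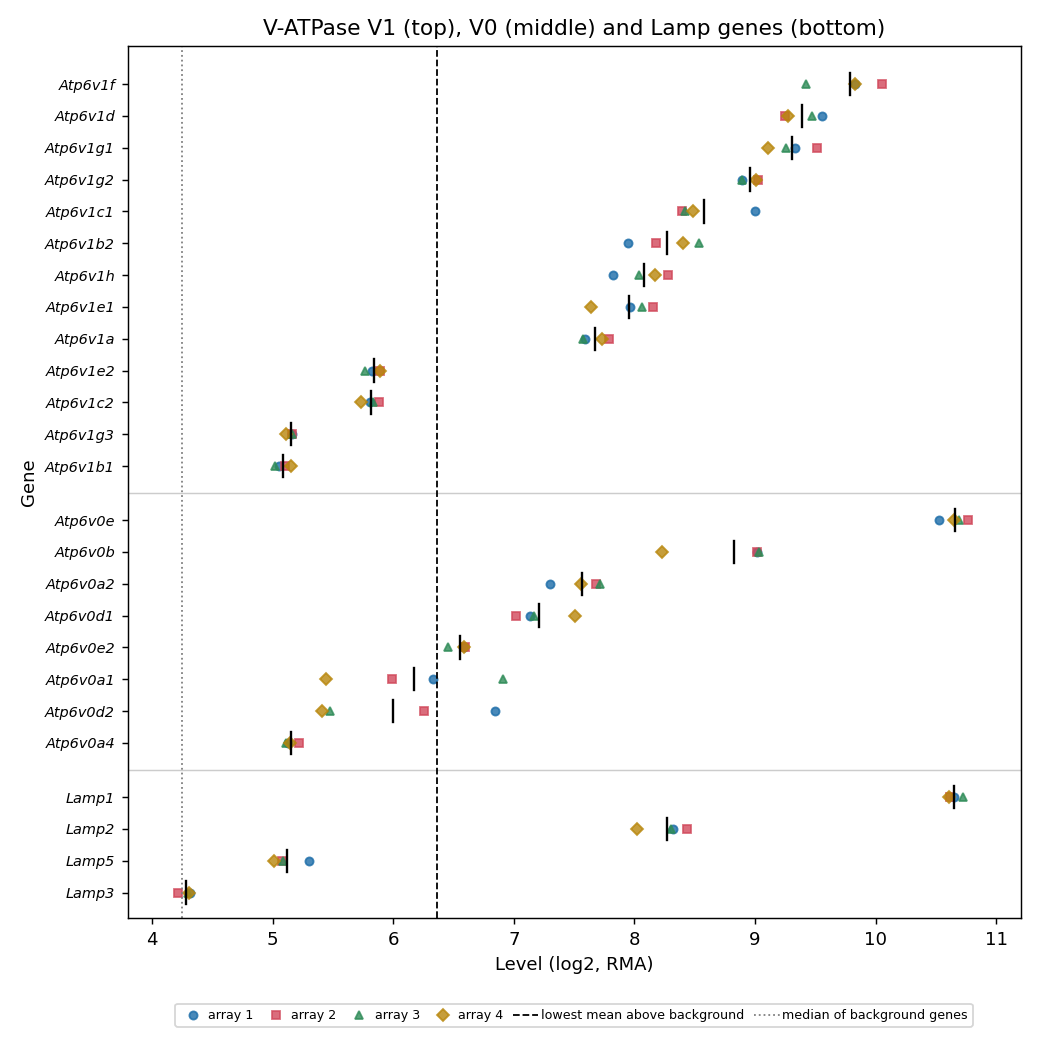
Each row is a gene of the V-ATPase V1 sector (top), V0 sector (middle) or Lamp family (bottom), with 1 symbol per array and a bar at the mean of 4 arrays on the log2 scale. The dashed line at 6.37 is the lowest called mean and the dotted line at 4.25 the background median, and only Atp6v0a1 and Atp6v0d2 have arrays on both sides of the dashed line.

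All 7 Atg genes that start the autophagosome and supply its membrane were called, against 46.2% of all named genes. Only 2 of the 7 lay above 7.42 on every array, where 24.1% of all named genes did. Atg13, of the initiating ULK1 kinase complex, was at 8.06, 8.08, 7.84 and 8.04 and its partner Atg101 at 6.81, 7.24, 6.63 and 6.75. Atg14, which directs the lipid kinase PIK3C3 to autophagy, was at 7.20, 7.89, 7.87 and 8.06, with array 1 below the rest. The scramblase gene Atg9a was at 7.68, 7.71, 7.87 and 7.68. Its paralogue Atg9b was at 6.46, 6.42, 6.50 and 6.46, the lowest called mean of the 78 genes. That call was lost without array 3, at 6.44 with an adjusted detection p of 0.0515, and with odorant receptors alone as background, at 0.0540. The lipid transfer genes Atg2a at 7.55 ± 0.18 and Atg2b at 7.55 ± 0.19 were both called.

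Of the 7 genes that attach ubiquitin-like proteins to their targets, 6 were called (85.7%), against 46.2% of all named genes. Above 7.42 on every array lay 3 of the 7, against 24.1% of all named genes. Atg3, the E2 enzyme that lipidates LC3, was at 8.80, 8.72, 8.62 and 9.11, highest on array 4. Atg7, the E1 enzyme of both conjugation routes, was at 8.52, 8.34, 8.43 and 8.52. Both were clear of background (adjusted detection p 0.0143 and 0.0143). Atg12, the ubiquitin-like protein joined to Atg5, was at 7.74, 7.72, 7.52 and 7.72. Atg10, the E2 enzyme for Atg12, was at 7.04 ± 0.18, and the scaffold genes Atg16l1 and Atg16l2 were at 7.01 ± 0.035 and 7.25 ± 0.039, all 3 called but below 7.42.

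Atg5, the acceptor of Atg12 and an essential gene of the route, was at 6.24, 6.11, 6.02 and 6.16 and not called. Its detection p was 0.0323 unadjusted and 0.0636 adjusted. It lay above the 95th percentile of background genes on every array, a rule met by 54.4% of all named genes and by 68 of the 78. The limma test against that percentile also called it, with an adjusted p of 0.00198, as it did 53.9% of all named genes. Each of these rules also passed 8 of the 15 genes of other organs. Among them was Ttr at 6.21 ± 0.15, with an adjusted limma p of 0.00195. Genes passed only by these rules, here and below, therefore carry less weight. The low reading of Atg5 describes 1 probe set and does not show that the transcript is absent.

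The Atg4 proteases, which trim LC3 and its relatives and release them from membranes, were called in 1 of 4 cases (25%). The share of all named genes was 46.2%. Atg4a was at 7.81, 7.52, 8.01 and 7.65, and its other probe set gave nearly the same mean, 7.74. RefSeq lists a pseudogene, Atg4a-ps, and signal from it cannot be told apart here. Atg4b was at 6.07, 6.20, 6.09 and 6.10 and Atg4d at 6.26, 6.16, 6.21 and 6.001. Neither was called (adjusted detection p 0.0661 and 0.0636), although both passed the limma test at 0.000548 and 0.00288. Atg4c was at 4.55, 4.69, 5.61 and 4.81 and not called by either test (adjusted detection p 0.264), with array 3 standing above the rest.

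**Figure D4:**
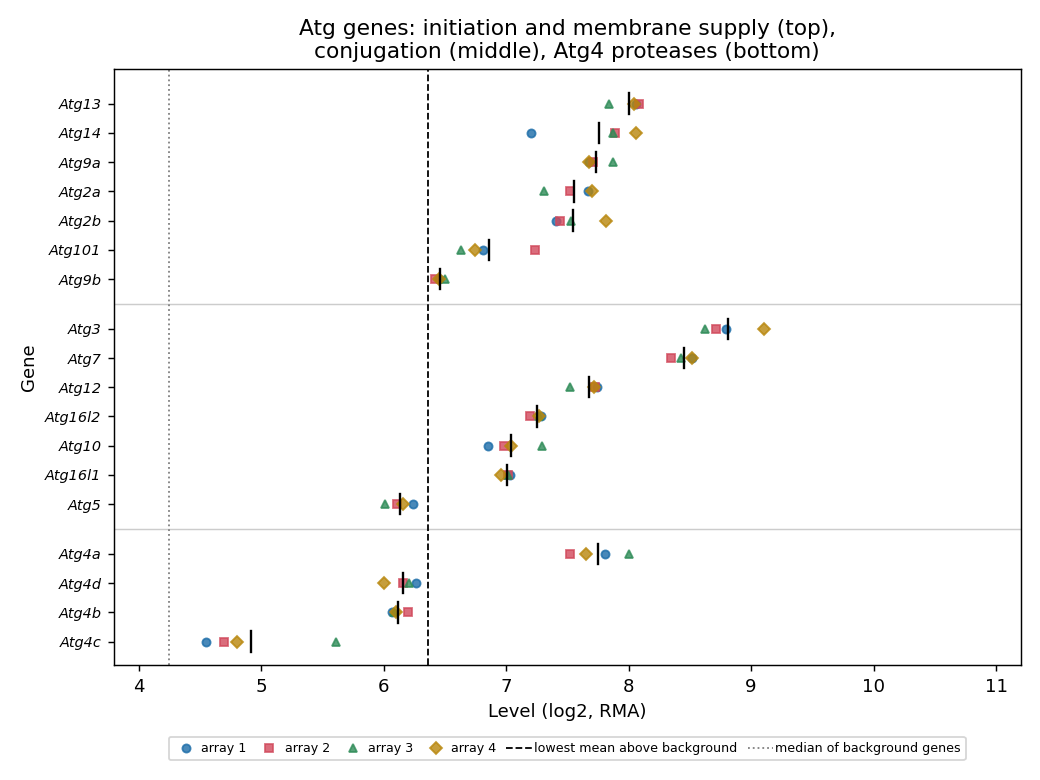
Each row is an Atg gene, with 1 symbol per array and a bar at the mean of 4 arrays on the log2 scale. The dashed line at 6.37 is the lowest called mean and the dotted line at 4.25 the background median, and Atg5, Atg4b and Atg4d lie just below the dashed line.

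Among genes of retromer and retriever, coats that return cargo from endosomes to the Golgi or cell surface, 5 of 6 were called. This was 83.3%, against 46.2% of all named genes. Above 7.42 on every array lay 2 of the 6, against 24.1% of all named genes. The shared subunit gene Vps29 was at 9.25, 9.12, 8.40 and 9.04, low on array 3. Vps35, the backbone of retromer, was at 7.47 ± 0.083, and its retriever counterpart Vps35l was at 7.57 ± 0.24. Of the arrestin-like subunits, Vps26b was at 9.44, 9.44, 9.41 and 8.89, low on array 4, and Vps26a at 7.28, 7.24, 7.89 and 7.22, high on array 3. The outlying arrays of these paralogues thus differed. Vps26c, of retriever, was at 6.38, 6.35, 6.24 and 6.35 and narrowly missed the call (adjusted detection p 0.0523), while limma called it at 9.06e-05. It was also called without array 1 or without array 2, at 6.32 and 6.33.

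All 8 genes of the tethering complexes HOPS and CORVET or related to them, which hold endosomes and lysosomes together before fusion, were called. The called share of all named genes was 46.2%. Above 7.42 on every array lay 6 of the 8, against 24.1% of all named genes, and Vps18 and Vps8 did not. The HOPS genes Vps39 and Vps41 were at 8.31, 7.97, 8.42 and 8.14 and at 7.96, 8.47, 8.09 and 7.97. The shared core was represented by Vps11 at 7.65 ± 0.094, Vps16 at 7.99 ± 0.13, Vps18 at 6.65 ± 0.20 and Vps33a at 8.03 ± 0.14. Vps33b, which works with Vipas39, was at 8.04 ± 0.24, and Vps8, of CORVET, at 6.61 ± 0.057.

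The 5 genes of GARP and EARP, which tether vesicles at the Golgi and at recycling endosomes, were all called, against 46.2% of all named genes. Above 7.42 on every array lay 3 of the 5, against 24.1% of all named genes, and Vps50 and Vps52 did not. Vps54, the subunit specific to GARP, was at 8.94, 8.96, 8.92 and 8.70, lowest on array 4. Vps53, shared by both, was at 8.11, 8.13, 8.09 and 8.19, nearly the same on all arrays. Vps50, specific to EARP, was at 6.57 ± 0.20, beside Vps51 at 7.80 ± 0.10 and Vps52 at 7.02 ± 0.089.

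All 9 genes of the ESCRT machinery, which buds cargo into endosomes and cuts membrane necks, were called, against 46.2% of all named genes. Above 7.42 on every array lay 8 of the 9, against 24.1% of all named genes. Vps28, of ESCRT-I, was at 9.76, 9.93, 9.72 and 10.15. The ATPase gene Vps4b, which disassembles the filaments, was at 9.44, 9.64, 9.997 and 9.69 and its paralogue Vps4a at 7.89 ± 0.034. Both were clear of background, and Vps4b varied more between arrays than Vps4a. The ESCRT-II genes Vps25 and Vps36 were at 9.12, 8.81, 8.29 and 8.71 and at 8.45, 9.10, 9.22 and 8.65, with array 3 lowest for the first and highest for the second. The ESCRT-I paralogues Vps37a, Vps37b and Vps37c were at 8.17 ± 0.16, 8.37 ± 0.15 and 7.74 ± 0.17, the last low on array 3, with levels of 7.83, 7.85, 7.49 and 7.80. Vps37d was listed at the identical value of 7.27 on all arrays, so its spread is not informative.

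The genes of the bridge-like lipid transfer proteins, Vps13a to Vps13d, were all called, against 46.2% of all named genes. Above 7.42 on every array lay 3 of the 4, against 24.1% of all named genes, and Vps13c did not. Vps13b was at 8.71, 8.70, 8.78 and 8.70, slightly high on array 3. Vps13d was at 8.29, 8.36, 8.40 and 8.40 and Vps13a at 8.33, 8.32, 8.26 and 8.32, slightly low on array 3. Vps13c was at 7.09 ± 0.052. A second probe set of Vps13d lay much lower, at 7.14, 6.999, 7.19 and 6.21 on arrays 1 to 4. The 4 probe sets used had a median SD of 0.0446, beside 0.168 over all genes above background. Of the other Vps genes, Vps72, a subunit of chromatin remodelling complexes, was at 7.70, 7.58, 8.001 and 7.42 and Vps9d1 at 6.81, 6.72, 6.62 and 6.77. Both were called, but neither lay above the 7.42 limit on every array. Vps45, which prepares SNARE proteins for fusion, was at 6.27, 6.49, 6.52 and 6.07 and missed the call (adjusted detection p 0.052), while limma called it at 0.00161. It was called without array 1, 2 or 4, at 6.36, 6.29 and 6.43.

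**Figure D5:**
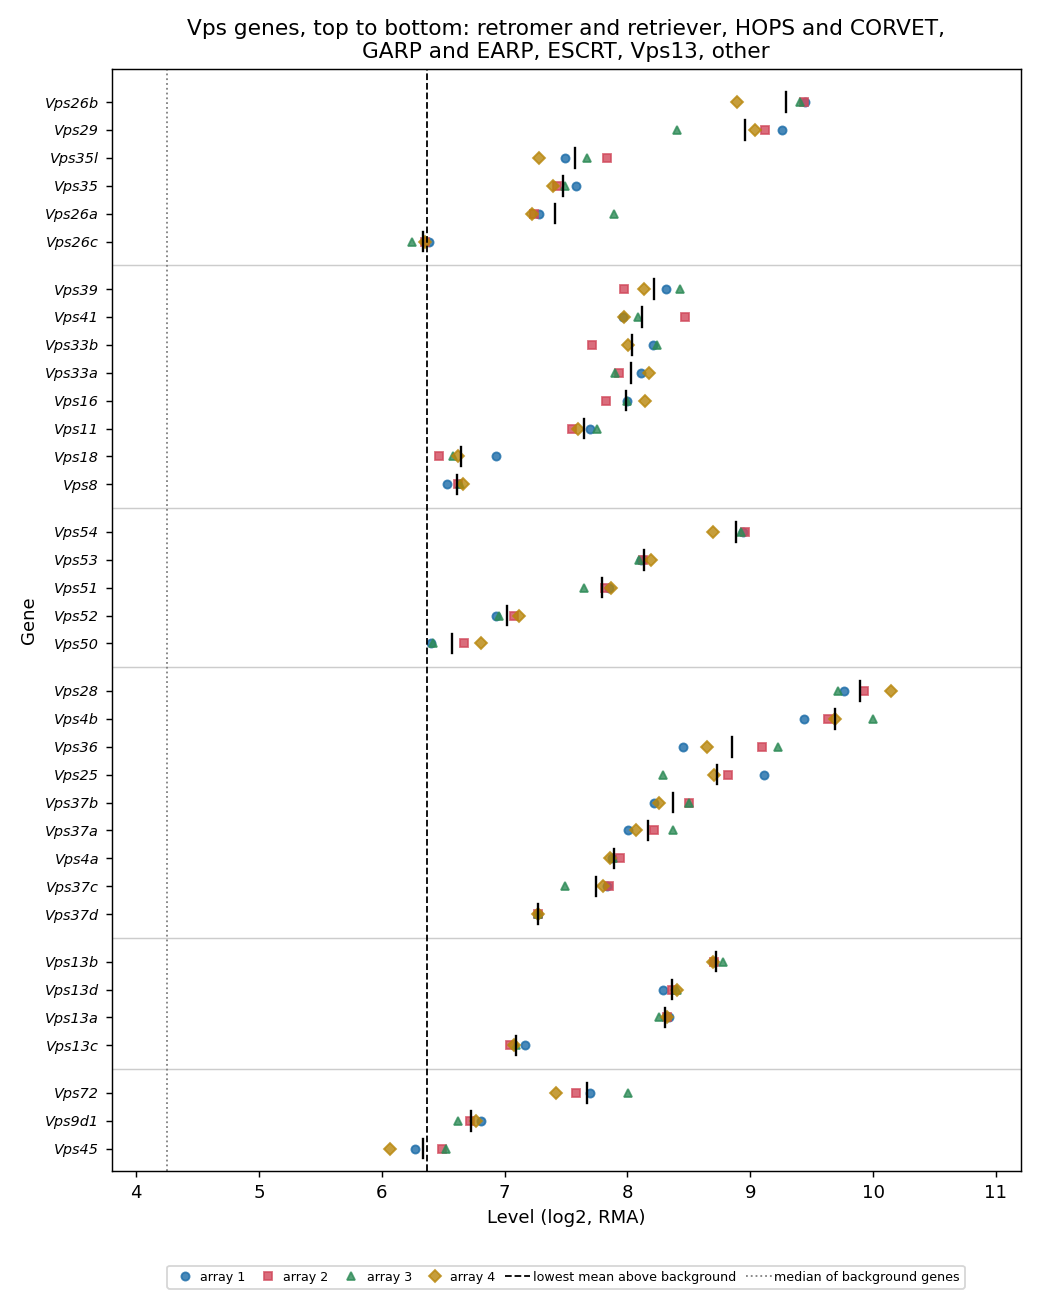
Each row is a Vps gene, grouped by complex from top to bottom, with 1 symbol per array and a bar at the mean of 4 arrays on the log2 scale. The dashed line at 6.37 is the lowest called mean, and only Vps26c and Vps45 have their means below it.

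At the median, the called genes of the set varied across arrays as all genes above background did, but none was among the most variable. Their median SD was 0.168 log2 units, and that of all 9203 genes above background was also 0.168, a fold of 1.12. No called gene of the set had an SD above 0.476, the 95th percentile of genes above background (0 of 63, against 5.01%), and in none did the highest and lowest array differ by over 1 log2 unit (0 of 63, against 6.23%). The highest level fell on array 1 in 13 genes, on array 2 in 16, on array 3 in 17 and on array 4 in 13, with ties in the others. For the lowest level these counts were 16, 13, 17 and 14. No array stood high or low for the set as a whole, the mean deviation from the gene mean being between -0.016 and 0.021 on each array. Pearson's r between arrays across the 63 genes lay between 0.952 and 0.968 in 6 pairs, a description across genes that are not independent replicates. The uncalled genes Atp6v0a1 and Atp6v0d2 were the 2 members with the widest spread, at SDs of 0.61 and 0.68.

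Other genes of these pathways, listed by symbol, were called in 89 of 96 cases (92.7%), against 46.2% of all named genes. Above 7.42 on every array were 61 of the 96, against 24.1% of all named genes. The 46.2% also stands beside each list below. Partners of the V-ATPase were called in 10 of 12 cases, led by Ncoa7 at 9.67 ± 0.069, Atp6ap1, an accessory subunit, at 9.05 ± 0.15 and Tcirg1 given above. The assembly factor gene Tmem199 at 6.11 ± 0.17 and Dmxl2 at 5.55 ± 0.19 were not called, though limma called Tmem199 at an adjusted p of 0.00811. Of 23 other autophagy genes 22 were called, with the LC3 relatives Gabarap at 11.31 ± 0.11 and Map1lc3b at 9.66 ± 0.28 and the cargo receptor Tax1bp1 at 9.998 ± 0.048. Wipi1 at 5.86 ± 0.33 was not called.

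Further sorting genes were called in 32 of 32 cases, with the ESCRT-III gene Chmp2a at 10.56 ± 0.14, the sorting nexin Snx5 at 10.29 ± 0.22 and Pdcd6ip, which encodes ALIX, at 9.9998 ± 0.16. Genes of the lysosome membrane were called in 17 of 18 cases. Laptm5, a lysosomal protein of blood cells, was at 12.48 ± 0.061, Laptm4a at 10.20 ± 0.15 and Lamtor4, which anchors mTORC1 to the lysosome, at 9.40 ± 0.30. The chloride transporter gene Clcn7, at 6.22 ± 0.42, was not called, though limma called it at 0.0444. Of 11 regulators 8 were called, among them the GTPase gene Rraga at 8.76 ± 0.27, Mtor at 7.68 ± 0.069 and Fnip1 at 7.59 ± 0.070. Rragd at 4.82 ± 0.11 was not called, nor were Mitf and Tfec given above.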

How the data were processed

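The deposited values are log2 levels, 1 for each probe set and array, and RMA is named as their method, per the submitters' processing notes. This method subtracts background, quantile-normalizes arrays and combines probes on the log2 scale. The software used and its build were not given in the sources used here. The platform has 35556 probe sets, of which 21789 carry 1 symbol in GEO's platform annotation, 1621 several and 12146 none listed. Through Entrez identifiers 21698 matched RefSeq (GRCm38.p6), which updated symbols. For each of the 999 genes with several probe sets (7 of the 78), the one with the highest mean was used. Detection p-values could not fall below 0.000808 (0.0108 adjusted), and 27 background genes were called. limma 3.58.1 tested levels minus each array's 95th percentile of background, one-sided, adjusted over all named genes. Identical values on at least 2 arrays occurred in 10.9% of genes above background, so some SDs are too small. The models of 18 of the 78 genes, 15 of them called, overlap another protein-coding gene. The part of these neighbours in the levels was not tested. Calculations ran in Python 3.11.15 and were checked on simulated levels. The number of arrays limits the precision. Per role, the 2 members with the highest mean, all uncalled members, paralogue sets with mixed calls and genes with an outlying array are given by array, and up to 3 called and 3 uncalled genes are named in each further list. Members and lists were chosen with earlier results of these data known. Alternatives tried were other detection rules, background genes, probe set choice, array scaling, a filter on low levels and leaving out each array.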

Additional observations from a re-analysis of the deposited data

Results flagged for a closer look

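Among the 78 genes and the pathway genes that the naming rule picked from the further lists, a gene is listed here when the gap between its highest or lowest array and the nearest other array was so large a share of its whole range (Dixon's test at the 95% level) that chance alone gives it in about 1 of 20 groups. This held for 14 of the 78 genes (17.9%) and for 12.9% of all named genes. Array 3 stood apart in 8 of the genes below. It was low for Atg12 at 7.52, Atg13 at 7.84, Atp6v0e2 at 6.45, Vps13a at 8.26 and Vps37c at 7.49, and high for Atg9a at 7.87, Vps13b at 8.78 and Vps26a at 7.89. Array 4 was low for Atp6v0b at 8.23, Vps26b at 8.89, Vps54 at 8.70 and the uncalled Atp6v1g3 at 5.11. Array 1 was high for Atp6v1c1 at 9.002, Atp6ap1 at 9.28 and the uncalled Tfec at 4.83. Array 2 was low for the uncalled Lamp3 at 4.21 and for Tax1bp1 at 9.93. The other arrays of Atp6v1g3 shared 1 value, so its gap has no weight.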

How the results depend on the processing

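The 78 genes were called in 62 to 68 cases under the other detection rules and background genes, probe set choice, scaling, filter and array subsets, against 63, while the share of all named genes that were called ran from 43.1% (odorant receptors alone) to 54.4% (95th percentile rule), against 46.2%. With 1 array left out the range was 62 to 65. Under the added rule of lying above every gene of other organs on every array, chosen after seeing the data, 41 of the 78 and 6 of the 18 Atg genes were called, as that rule has a higher limit. That rule called 24.1% of all named genes, 22 Vps genes against 33, and 11 V-ATPase genes against 14. It called 2 Lamp genes against 2, and 61 other pathway genes against 89. These 4 counts stayed within 1.5 times under each alternative, the Vps count just at that limit. Apart from that added rule, 62 of the 63 calls were kept under every alternative, the exception being Atg9b, lost without array 3 and with odorant receptors as the background. Of the 15 uncalled genes, 9 were called under no alternative, namely Atg4c, Atp6v0a4, Atp6v0d2, Atp6v1b1, Atp6v1c2, Atp6v1e2, Atp6v1g3, Lamp3 and Lamp5. The median SD of the called genes was 0.168, and between 0.116 and 0.137 with 1 array left out. No paired analysis was possible because the 4 samples form 1 group. The main rule called no mean below 6.37, while limma called means down to 5.90, so a transcript that was not called may be present.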
